A study of Mus musculus with 12 samples.

Results

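Imprinted genes that embryonic fibroblasts transcribe were followed through the first days of induced reprogramming: the paternally expressed Peg3, Mest, Ndn, Dlk1 and Plagl1 and the maternally expressed H19, Meg3 and Grb10. Each gene was read from the probe set that names it and no other gene, and where several did, from the one with the highest mean log2 intensity over the 12 arrays. By this rule 7 of the 8 genes were measured, out of 22180 genes in all. The only probe set for H19 also names Mir675, the microRNA gene inside H19, so its values are given separately as those of the H19/Mir675 probe set.

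The samples were mouse embryonic fibroblasts from E13.5 embryos of strain C57Bl/6 -129X1/SvJ. All 4 groups carried the same genotype, Col1a1::tetOP-OKSM ; R26-M2rtTA, which is a doxycycline-inducible cassette for Oct4, Klf4, Sox2 and c-Myc (OKSM) together with the reverse tetracycline transactivator. All were infected with a retroviral short hairpin vector, grown in embryonic stem cell medium with serum and LIF, and given doxycycline, so no group was free of the factors. The groups were a Renilla luciferase hairpin (control) for 3 days, a Chaf1a hairpin (knockdown) for 3 days, the Renilla hairpin for 6 days and the Chaf1a hairpin for 6 days, with 3 arrays each. CAF-1, whose large subunit is the product of Chaf1a, is a chaperone that places histones on freshly copied DNA. Whether the replicates are separate embryos, cultures or only separate arrays is not in the labels, and p-values then measure only the spread between these samples, which may be technical.

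An imprinted gene is transcribed mainly from the copy inherited from a given parent, because the other copy is silenced by DNA methylation set in the germ line or by marks that follow from it. Many imprinted genes steer fetal growth, and paternally expressed ones often favour it while maternally expressed ones restrain it. In mouse embryos many of them are abundant in mesoderm-derived cells, fibroblasts included, and their transcripts decline after birth. The arrays measure total transcript and do not distinguish the parental copies.

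Array medians lay between log2 intensities of 5.30 and 5.44, and all 7 genes were above the low-value filter (the array's own 30th percentile, at log2 4.30 to 4.38) on all 12 arrays. Of 16 fibroblast markers, 15 had a probe set of their own, 13 of those had a mean above the array median, and their mean level ran from 9.31 to 9.79 over the arrays. The mean level of 15 skeletal muscle markers ran from 5.47 to 5.56, that of 12 neural markers from 5.57 to 5.96 and that of 9 endothelial markers from 5.52 to 5.81. The mean was above the array median for 9 of the muscle, 6 of the neural and 4 of the endothelial markers. The targeted gene itself differed little between hairpins. Chaf1a was lower in the knockdown array of 3 of 3 same-numbered pairs on each day, with log2 differences of -0.29 at day 3 and -0.12 at day 6. Neither difference passed the test (adjusted p = 0.726 and 0.999, limma). At day 3 its hairpin groups did not overlap (unadjusted p = 0.00981, limma), and at day 6 they did. The share of all genes without overlap between hairpins at day 3 was not computed. In control cells Chaf1a was called lower at day 6 than at day 3 (-0.30; adjusted p = 0.0419, limma), as were 10.6% of all genes.

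The rise of H19/Mir675, Peg3 and Mest between day 3 and day 6 was seen with either hairpin. Dlk1, Meg3, Plagl1 and Grb10 did not pass the test in either time comparison. Meg3 is read here from the dimmest of its 3 probe sets. The 2 brighter ones, which also name microRNA genes, differed by 0.47 and 0.51 in control. They did not pass in the fit of all probe sets (adjusted p = 0.0918 and 0.125, limma). Ndn passed only in knockdown cells, where it was lower at day 6. None of the 7 genes passed between knockdown and control at either day. A gene was called when its limma p-value, adjusted by Benjamini-Hochberg over all 17860 genes kept, was below 0.05. In control cells 2 of 7 genes were called higher at day 6 and 0 lower, where 6.99% of all genes were called higher and 10.6% lower. In knockdown cells 2 of 7 were called higher and 1 lower, where 7.46% of all genes were called higher and 10.5% lower. The median log2 fold change of the 7 genes was 0.14 in control and -0.02 in knockdown cells, and that of all genes was 0.01 in both.

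**Figure D1:**
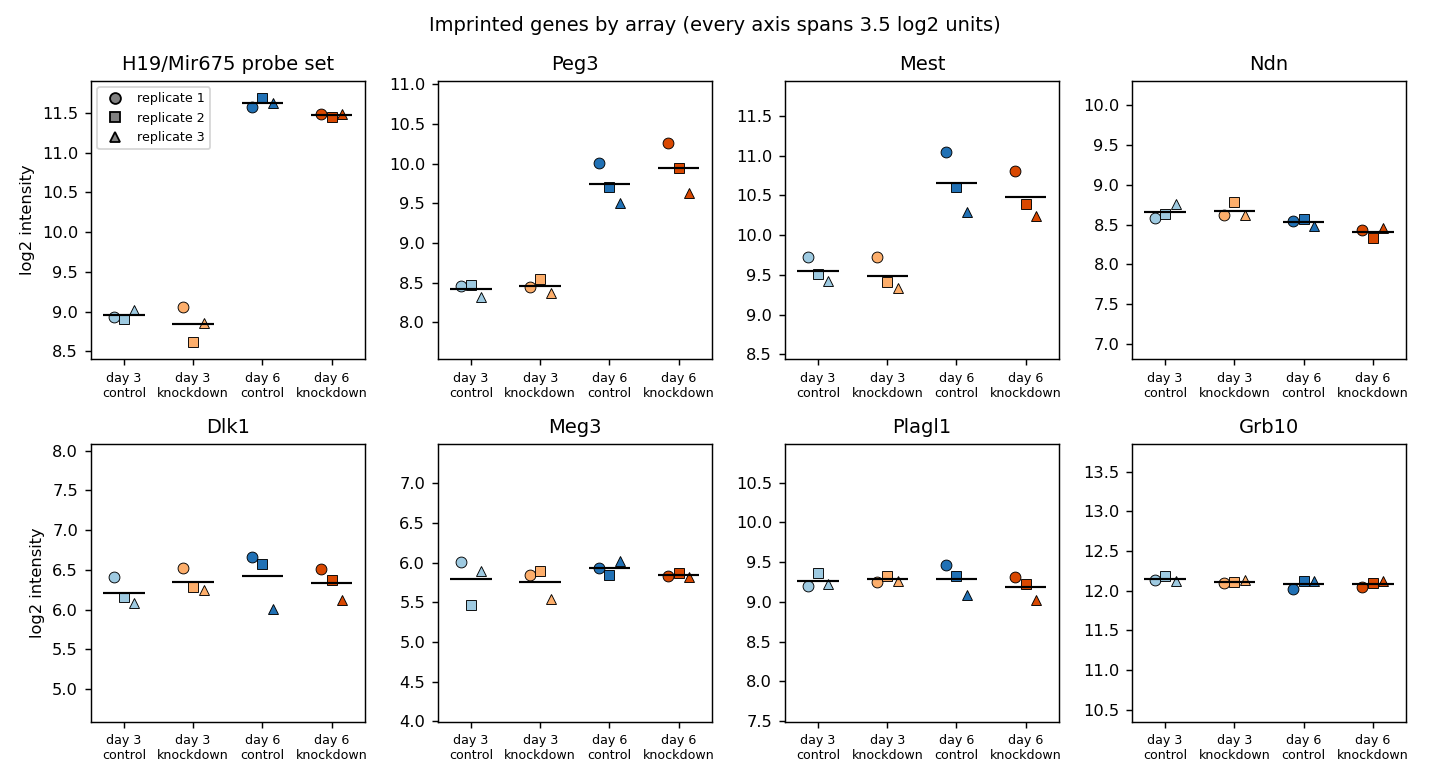
Log2 intensity of the H19/Mir675 probe set and of the 7 imprinted genes with a probe set of their own, 1 point an array, in the 4 groups (3 arrays each; the horizontal line is the group mean, and point shape marks the replicate number). Every axis spans the same number of log2 units, so slopes can be compared between panels. H19/Mir675, Peg3 and Mest step up from day 3 to day 6 with either hairpin, and the other panels stay nearly level. The Meg3 panel shows the dimmest of its probe sets.

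Peg3 encodes a large zinc finger protein that binds DNA and is active in mesoderm and brain. Its log2 intensity in day 3 controls was 8.45, 8.48 and 8.31 (replicates 1 to 3). At day 6 the control arrays gave 10.01, 9.71 and 9.50. With the Chaf1a hairpin the values were 8.45, 8.55 and 8.37 at day 3, and 10.26, 9.94 and 9.63 at day 6. Every day 6 array was above every day 3 array, by more than a log2 unit between the group means, while control and knockdown arrays of the same day overlapped. In rising order, the group means were 8.41 ± 0.09 (SD, n = 3) for day 3 controls and 8.46 ± 0.09 for day 3 knockdown. Then came 9.74 ± 0.26 in day 6 controls and 9.94 ± 0.32 in day 6 knockdown. The neighbours of the same day did not differ beyond the spread within groups, which ignores the replicate numbers. In same-numbered pairs knockdown was higher in 2 of 3 at day 3 and in 3 of 3 at day 6. The log2 fold change from day 3 to day 6 was 1.33 in control (2.51-fold; 95% interval 1.01 to 1.65; adjusted p = 1.13e-04, limma). In knockdown it was 1.49 (2.80-fold; 1.17 to 1.81; adjusted p = 3.82e-05). As these are bulk samples, fewer cells of a type and less RNA per cell cannot be told apart in this or any later value. The day 6 groups did not overlap the day 3 groups, as for 16.0% of all genes on the higher side in control and 15.4% in knockdown.

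The probe set that names both Peg3 and its antisense partner Peg3os also rose. It went from a mean of 6.20 to 7.26 in control and from 6.02 to 7.46 in knockdown cells. In the fit of all 30050 probe sets kept, its log2 fold change was 1.06 in control (adjusted p = 0.00138, limma) and 1.44 in knockdown (adjusted p = 1.85e-04). This probe set cannot tell Peg3 from Peg3os, so it is not a second measure of Peg3 alone. It moved in the same direction as the probe set of Peg3 with both hairpins.

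Mest encodes an enzyme-like protein of the alpha/beta hydrolase fold that is abundant in embryonic mesenchyme. Day 3 control arrays stood at 9.73, 9.51 and 9.42, and day 6 control arrays at 11.05, 10.61 and 10.29. Knockdown arrays stood at 9.72, 9.42 and 9.33 at day 3 and at 10.81, 10.39 and 10.24 at day 6. The days did not overlap with either hairpin, but the spread within a group was wide at day 6, with SDs of 0.16, 0.21, 0.38 and 0.29 in the order day 3 control, day 3 knockdown, day 6 control and day 6 knockdown. The log2 fold change was 1.10 in control (2.14-fold; 95% interval 0.69 to 1.50; adjusted p = 0.00183, limma) and 0.99 in knockdown (1.99-fold; 0.59 to 1.39; adjusted p = 0.00304). The means were highest in day 6 controls at 10.65 and then 10.48 in day 6 knockdown, 9.55 in day 3 controls and 9.49 in day 3 knockdown. Again the neighbours of the same day did not differ beyond the spread within groups, which ignores the replicate numbers. In same-numbered pairs knockdown was lower in 3 of 3 on each day.

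The promoters of Peg3 and Mest are shown because these genes rose together, and that of Ndn because it was called in the opposite direction in knockdown cells. They are RefSeq sequences of build GRCm38.p6, 250 bases before to 50 after the annotated start, in the direction of transcription. The build of the array annotation is not given in the sources used here, so no position on the array is implied. Capitals mark TGCCGC on either strand (GCGGCA when read on the other), the hexamer that Zfp57, a zinc finger protein that protects imprints, binds when it is methylated. Mest has 3 annotated starts, of which the start shown is 1 of a pair that lie 3 bases apart.
Peg3, chr7:6730370-6730669, minus strand: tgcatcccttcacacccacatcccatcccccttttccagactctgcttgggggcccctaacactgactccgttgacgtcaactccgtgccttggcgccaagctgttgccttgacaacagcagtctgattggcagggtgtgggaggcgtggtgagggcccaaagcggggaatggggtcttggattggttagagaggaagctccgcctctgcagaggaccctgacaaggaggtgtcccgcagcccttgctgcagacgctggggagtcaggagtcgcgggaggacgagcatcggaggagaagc
Mest, chr6:30737800-30738099, plus strand: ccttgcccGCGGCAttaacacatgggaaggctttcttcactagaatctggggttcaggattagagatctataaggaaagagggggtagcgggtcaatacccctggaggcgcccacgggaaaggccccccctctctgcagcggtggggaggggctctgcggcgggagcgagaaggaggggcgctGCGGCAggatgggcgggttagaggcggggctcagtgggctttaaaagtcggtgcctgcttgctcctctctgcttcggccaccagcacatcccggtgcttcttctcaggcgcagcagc
Ndn, chr7:62348027-62348326, plus strand: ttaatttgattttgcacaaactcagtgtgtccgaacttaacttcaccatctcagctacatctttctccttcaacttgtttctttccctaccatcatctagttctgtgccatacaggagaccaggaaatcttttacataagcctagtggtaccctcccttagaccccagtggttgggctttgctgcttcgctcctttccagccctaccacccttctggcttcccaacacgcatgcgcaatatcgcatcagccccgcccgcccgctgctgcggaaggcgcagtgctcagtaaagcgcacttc
The Mest window holds 2 matches, and the windows of Peg3 and Ndn hold 0. Of all 32851 promoters of the same length, 11.6% hold at least 1 match and 1.53% hold 2 or more. The Mest window has 17 CG dinucleotides, that of Peg3 13 and that of Ndn 11, against a median of 7 over all promoters (quartiles 3 and 20). The other Mest start, chr6:30733256-30733555, has 0 matches and 8 CG. Among the genes that were not called, Plagl1 has 1 match and 26 CG, and Dlk1 has 0 matches and 9 CG. Grb10 has 1 match with 45 CG at one start and 0 with 9 CG at the other, and Meg3 has 1 with 13 CG and 0 with 1 CG. A match is a description of letters in the window, and methylation was not measured.

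H19 is a long noncoding RNA transcribed from the maternal copy, which restrains growth, and it is the host of the microRNA gene Mir675. Its probe set cannot tell H19 from Mir675. In day 3 controls it read 8.93, 8.91 and 9.01, and in day 6 controls 11.57, 11.69 and 11.63. Knockdown arrays read 9.05, 8.62 and 8.86 at day 3 and 11.48, 11.45 and 11.49 at day 6. The gap between the days was many times the spread within any group. In the fit of all probe sets the log2 fold change was 2.68 in control (6.39-fold; 95% interval 2.47 to 2.88; adjusted p = 4.80e-07, limma). In knockdown it was 2.63 (6.19-fold; 2.42 to 2.84; adjusted p = 4.18e-07). In that fit 3.86% of all probe sets were called higher in control and 4.35% in knockdown. The mature microRNAs carried by Mir675 are shown because the probe set with the largest rise described here names their gene; they are RefSeq entries, with the seed (bases 2 to 8) in capitals, and the 2 arms have different seeds.
mmu-miR-675-5p: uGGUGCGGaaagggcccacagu
mmu-miR-675-3p: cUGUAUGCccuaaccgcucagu

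Ndn encodes necdin, a MAGE family protein that holds back the cell cycle and is expressed from the paternal copy. It read 8.58, 8.64 and 8.76 in day 3 controls and 8.55, 8.57 and 8.48 in day 6 controls. In knockdown cells it read 8.62, 8.79 and 8.62 at day 3 and 8.43, 8.33 and 8.46 at day 6. The days did not overlap with either hairpin, with all day 6 arrays below those of day 3, as for 19.3% of all genes on the lower side in control and 18.9% in knockdown. In knockdown Ndn fell by 0.27 on the log2 scale (1.21-fold lower; 95% interval -0.42 to -0.12; adjusted p = 0.0182, limma). The control difference of -0.12 did not pass (-0.28 to 0.03; adjusted p = 0.262), and the difference between the time effects, knockdown minus control, was -0.15 with adjusted p = 0.990. The call in knockdown rests on replicate 2: the adjusted p was 0.0714 without day 3 knockdown replicate 2 and 0.0760 without day 6 knockdown replicate 2. With those 2 arrays both left out, the log2 fold change was -0.18 with adjusted p = 0.194, and with only the knockdown arrays in the fit the adjusted p was 0.0505.

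**Figure D2:**
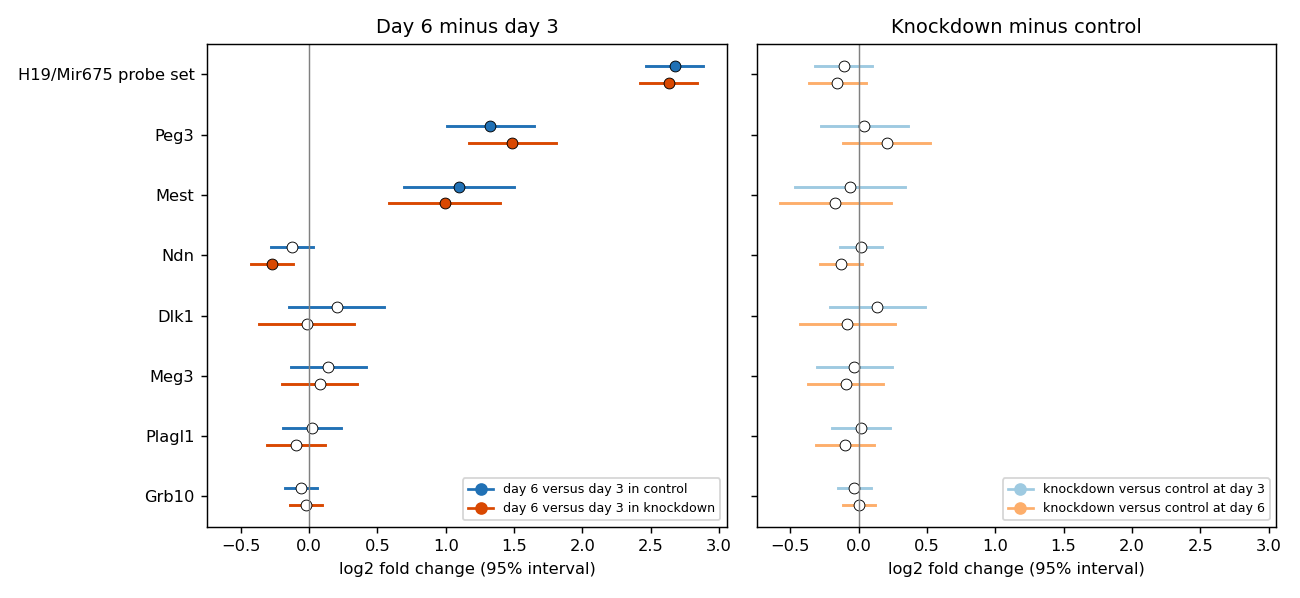
Log2 fold changes with 95% intervals from limma for day 6 minus day 3 in each hairpin (left) and for knockdown minus control on each day (right); a filled point passed an adjusted p of 0.05 and an open point did not. H19/Mir675 comes from the fit of all probe sets and the other genes from the fit with 1 probe set a gene. For Meg3 this is the dimmest of its probe sets. On the left the intervals of H19/Mir675, Peg3 and Mest lie far above 0 for both hairpins, and on the right the intervals of all 8 include 0.

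Dlk1, a transmembrane protein with epidermal growth factor repeats related to Notch ligands, is expressed from the paternal copy and marks preadipocytes and other precursor cells. It stood at 6.40, 6.15 and 6.08 in day 3 controls, 6.53, 6.28 and 6.24 in day 3 knockdown, 6.66, 6.57 and 6.01 in day 6 controls and 6.51, 6.37 and 6.12 in day 6 knockdown. All 4 groups overlapped. The log2 fold change from day 3 to day 6 was 0.20 in control (95% interval -0.14 to 0.55; adjusted p = 0.444, limma) and -0.02 in knockdown (-0.37 to 0.33; adjusted p = 0.952).

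Plagl1 encodes a zinc finger transcription factor that regulates other imprinted genes. Its control arrays gave 9.20, 9.36 and 9.23 at day 3 and 9.46, 9.32 and 9.08 at day 6, and its knockdown arrays 9.25, 9.33 and 9.26 and then 9.31, 9.23 and 9.02. The days overlapped with either hairpin, at log2 fold changes of 0.02 (-0.19 to 0.23) in control and -0.09 (-0.31 to 0.12) in knockdown. A further probe set that names only Plagl1 lay at a mean of 3.60, below the low-value filter, and was not tested.

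Grb10 encodes an adapter that dampens signalling from the insulin and insulin-like growth factor receptors, and in most tissues it is expressed from the maternal copy. It varied least of the 7 genes, from 12.02 to 12.18 over the 12 arrays. Group means were 12.14 ± 0.03 (SD, n = 3) in day 3 controls, 12.11 ± 0.02 in day 3 knockdown, 12.09 ± 0.06 in day 6 controls and 12.09 ± 0.04 in day 6 knockdown, and no neighbours in this order differed beyond their spread. The 95% intervals of its day 6 minus day 3 differences, -0.18 to 0.06 in control and -0.14 to 0.10 in knockdown, exclude a rise of the size of Peg3 or Mest.

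Meg3 is a long noncoding RNA of the maternal copy, made from the same domain as Dlk1 and followed downstream by Rtl1 antisense, Rian, Mirg and a large microRNA cluster. The probe set that names only Meg3 is the dimmest of its 3, with a mean log2 intensity of 5.83. Which of the 3 measures Meg3 best was not settled. The dimmest probe set read 6.01, 5.47 and 5.90 in day 3 controls and 5.84, 5.89 and 5.55 in day 3 knockdown. At day 6 it read 5.93, 5.85 and 6.03 in controls and 5.83, 5.86 and 5.82 in knockdown. The days overlapped with either hairpin (adjusted p = 0.505 and 0.730, limma). The brighter probe sets name Meg3 together with microRNA genes. The Meg3/Mir770 probe set read 7.57, 6.88 and 7.49 in day 3 controls and 7.91, 7.82 and 7.63 in day 6 controls. That is a log2 fold change of 0.47 with no overlap, which did not pass in the fit of all probe sets (adjusted p = 0.0918) but did without day 3 control replicate 1 (0.60; adjusted p = 0.0496). In knockdown cells it read 7.62, 7.84 and 7.71 at day 3 and 7.88, 7.77 and 7.65 at day 6, a difference of 0.05. The Meg3/Mir1906-1/Mir1906-2 probe set gave 0.51 in control (adjusted p = 0.125) and 0.12 in knockdown (adjusted p = 0.764).

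These differences moved when 1 array was left out. Of the 34 probe sets kept that name Meg3, Rian, Mirg, Rtl1 or a microRNA of the cluster, day 3 control replicate 2 was the lowest of the 12 arrays in 24, or 70.6%, where it was the lowest in 15.4% of all probe sets. The median distance of these probe sets from their own means over the 12 arrays was -0.42 on that array and lay between -0.08 and 0.15 on the other 11 arrays, while over all probe sets it was -0.02 on that array. Without it the day 6 minus day 3 difference in control was 0.26 for the Meg3/Mir770 probe set and 0.27 for the Meg3/Mir1906-1/Mir1906-2 probe set. The same array enters the day 3 knockdown comparison as a control, and there the Meg3/Mir770 probe set differed by 0.41 with it (adjusted p = 0.653, limma) and by 0.19 without it. What sets this array apart was not tested.

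**Figure D3:**
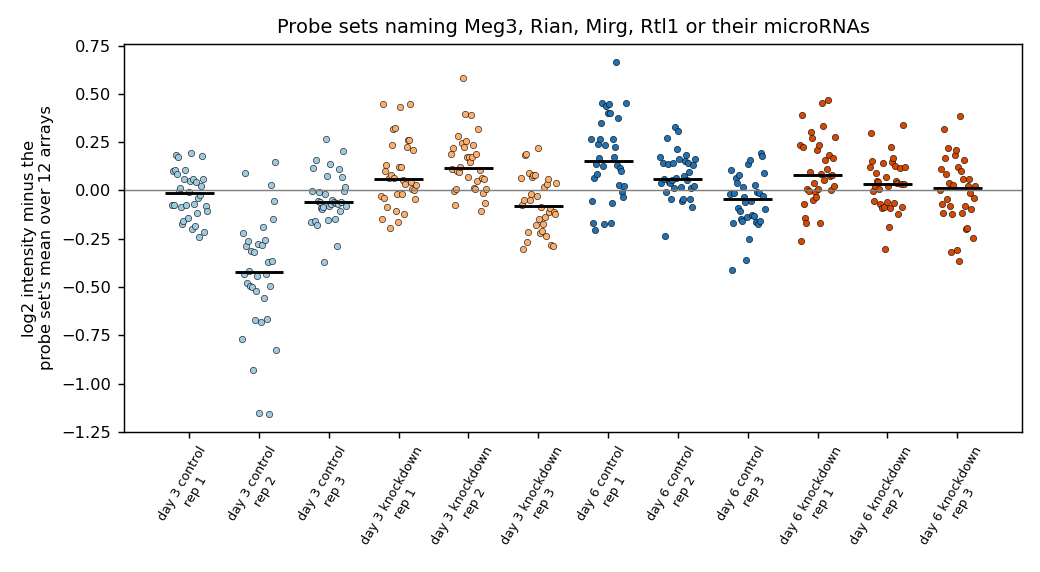
Log2 intensity minus the probe set's own mean over the 12 arrays, for 34 probe sets naming Meg3, Rian, Mirg, Rtl1 or their microRNAs, 1 point a probe set and 1 column an array; the bar is the median of the array. Day 3 control replicate 2 lies lowest, with a median of -0.42, and the medians of the other 11 arrays lie between -0.08 and 0.15.

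Rian, a noncoding RNA that hosts small nucleolar RNAs in this domain, has a probe set of its own. It averaged 8.20 ± 0.13 (SD, n = 3) in day 3 controls, 8.42 ± 0.09 in day 3 knockdown, 8.43 ± 0.19 in day 6 controls and 8.41 ± 0.04 in day 6 knockdown, and passed in neither time comparison (log2 fold changes 0.23 and -0.00; adjusted p = 0.121 and 0.986, limma). Without day 6 control replicate 3 the control value was 0.32 with adjusted p = 0.0488 (limma). Its day 3 control arrays read 8.28, 8.06 and 8.28, so replicate 2, the array low in this domain, also lowers the day 3 control mean of Rian. Of 51 listed microRNA genes at the loci of the 8 genes, most of them in the Meg3 domain, 36 had a probe set of their own and 23 were tested. None was called in any of the 4 comparisons of groups with limma, and those below 0.05 before adjustment numbered 4 in control over time, 0 in knockdown over time, 7 between hairpins at day 3 and 0 at day 6. At day 3, 20 of the 23 were higher in knockdown, at a median log2 difference of 0.21, against a median of -0.01 over all genes. Without day 3 control replicate 2 this became 14 of 23 and 0.08. The 2 with the highest level, Mir329 and Mir673, differed at day 3 by 0.46 (adjusted p = 0.726) and 0.01 (adjusted p = 0.997). In control over time, 4 of the 23 were called without day 3 control replicate 1 and 0 without day 3 control replicate 2.

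The comparison between hairpins asks how these transcripts differ between cells with the Chaf1a hairpin and cells with the control hairpin during reprogramming. It shares its arrays with the time comparisons, so the values below are the same levels set side by side. With limma 0 of 7 genes were called at day 3, where 0% of all genes were called and 1074 were below 0.05 before adjustment. At day 6 0 of 7 were called, where 0.0392% of all genes were called and 793 were below 0.05 before adjustment. The smallest unadjusted p among the 7 genes was 0.407 at day 3 and 0.0885 at day 6, the latter for Ndn. The fit of all probe sets, which holds the H19/Mir675 probe set, called 0% of probe sets at day 3 and 0.00998% at day 6.

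At day 3 the log2 differences of the 7 genes, knockdown minus control, ran from -0.07 for Mest to 0.14 for Dlk1, with adjusted p of 0.945 to 0.991. At day 6 Peg3 was higher in knockdown in 3 of 3 same-numbered pairs, by 0.20 (95% interval -0.12 to 0.52). Mest was lower in 3 of 3 pairs at both days, by -0.07 (-0.47 to 0.34) at day 3 and -0.17 (-0.57 to 0.23) at day 6. Dlk1 was likewise higher in 3 of 3 pairs at day 3, and Plagl1 and Ndn were lower in 3 of 3 at day 6. The share of all genes with 3 pairs in the same direction was not computed. Ndn at day 6 was the only one of the 7 whose hairpin groups did not overlap, with all knockdown arrays lower, by -0.13 (-0.28 to 0.02), as for 5.57% of all genes. The H19/Mir675 probe set at day 6 likewise did not overlap, at -0.16 (-0.36 to 0.05; adjusted p = 0.9996, limma). At day 3 the brighter Meg3 probe sets did not overlap either, with knockdown arrays higher. The differences were 0.41 for Meg3/Mir770 and 0.36 for Meg3/Mir1906-1/Mir1906-2 (adjusted p = 0.653 and 0.762, limma). Day 3 control replicate 2, low in this domain, is among those controls. The share of all probe sets without overlap was not computed. The narrowest intervals were those of Grb10, -0.15 to 0.09 at day 3 and -0.11 to 0.12 at day 6, and the widest those of Mest.

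The test of whether the hairpin effect changed between the days called 0 of 7 genes (0% of all genes; 910 below 0.05 before adjustment, limma), and equally tests whether the time effect differed between hairpins. Its log2 values were 0.16 (-0.29 to 0.62) for Peg3, -0.10 (-0.68 to 0.47) for Mest and -0.05 (-0.34 to 0.25) for the H19/Mir675 probe set. No difference between the rises in control and in knockdown cells was detected. The intervals give the sizes that remain possible in this fit, which does not pair the replicate numbers. The hairpin effect averaged over both days called 0 of 7 as well (0% of all genes; 989 below 0.05 before adjustment).

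Other imprinted genes give the setting of these values. Of 20 listed genes from the same domains as the 8, 15 had a probe set of their own and 14 were tested. With either hairpin 2 of the 14 were called higher and 1 lower at day 6, and they were the same 3 genes, where 6.99% of all genes were called higher and 10.6% lower in control and 7.46% and 10.5% in knockdown. Igf2, the fetal growth factor that shares its enhancers with H19 and is expressed from the other parental copy, stood at 8.89, 9.33 and 9.06 in day 3 controls and 9.71, 9.79 and 9.69 in day 6 controls. Its knockdown arrays stood at 8.85, 9.50 and 8.97 at day 3 and 9.69, 9.61 and 9.48 at day 6. Igf2 was called higher in control by 0.64 (adjusted p = 0.0111, limma), with no overlap of the days, and in knockdown by 0.48 (adjusted p = 0.0415), with overlap. The control call was lost without replicate 1 of both days (0.54; adjusted p = 0.0895) and without replicate 3 of both days (0.65; adjusted p = 0.0693). The knockdown call was lost in 8 of 18 alternatives, among them leaving out any single day 6 knockdown array or day 3 knockdown replicate 1 or 3 (adjusted p 0.0538 to 0.158). Phactr2, a regulator of phosphatase 1 and actin beside Plagl1, rose by 0.81 in control and 0.89 in knockdown (adjusted p = 1.98e-04 and 8.80e-05). Ddc, the aromatic amino acid decarboxylase beside Grb10, fell by 0.35 in control and by 0.31 in knockdown (adjusted p = 0.0261 and 0.0480). Its call was lost in 6 and 12 of 18 alternatives, in control when day 3 replicate 2, day 6 replicate 1 or day 6 replicate 3 was left out (adjusted p 0.0699 to 0.107). With the replicate number as a block, the knockdown call was lost too (adjusted p = 0.0587).

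Of 34 listed imprinted genes at other loci, 30 had a probe set of their own and 27 were tested. In control 5 of the 27 were called higher and 2 lower at day 6, and in knockdown 4 were called higher and 3 lower, so that 20 did not pass in each comparison. The shares over all genes were 6.99% higher and 10.6% lower in control, and 7.46% and 10.5% in knockdown. The 6 genes called with both hairpins moved in the same direction in both. Cdkn1c, an inhibitor of cyclin-dependent kinases from the maternal copy, averaged 5.81 ± 0.22 (SD, n = 3) with the control hairpin at day 3 and 7.09 ± 0.24 at day 6, and 6.05 ± 0.13 and 7.09 ± 0.41 in knockdown. It rose by 1.29 (2.44-fold; adjusted p = 5.68e-04, limma) and 1.04 (2.06-fold; adjusted p = 0.00197). Nnat, a small membrane proteolipid from the paternal copy, rose by 1.17 and 1.16 (adjusted p = 4.11e-05 and 3.22e-05), from means of 7.90 and 8.05 to 9.08 and 9.21. Gab1, a docking protein of growth factor receptors, rose by 0.60 and 0.45, and Ppp1r9a, an actin-binding scaffold, by 0.39 and 0.44.

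Htr2a, a serotonin receptor, fell by 1.23 in control and by 1.17 in knockdown (2.34-fold and 2.25-fold lower; adjusted p = 3.35e-04 and 4.14e-04, limma). Slc38a4, an amino acid transporter, fell by 0.33 and by 0.39 (adjusted p = 0.00545 and 0.00186), and the control call was lost without replicate 3 of both days (-0.31; adjusted p = 0.0543). The remaining calls, named after their values were seen, were Sgce, higher in control by 0.30 (adjusted p = 0.0459), and Mcts2, lower in knockdown by -0.37 (adjusted p = 0.0120). The Sgce call was lost in 11 of 18 alternatives, among them leaving out any single control array (adjusted p 0.0599 to 0.165). The Mcts2 call was lost without replicate 1 of both days (adjusted p = 0.0682) and without replicate 3 of both days (-0.25; adjusted p = 0.130), and its control value of -0.27 had an adjusted p of 0.0529 and was called in 5 of 18 alternatives. The median log2 fold change was 0.02 in control and 0.01 in knockdown over the 27 genes, and 0.07 and 0.04 over the 14, against 0.01 over all genes. Between hairpins 0 of the 41 genes were called by limma at either day. The unadjusted p was below 0.05 for 1 of the 14 and 0 of the 27 at day 3, and for 0 and 1 at day 6.

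**Figure D4:**
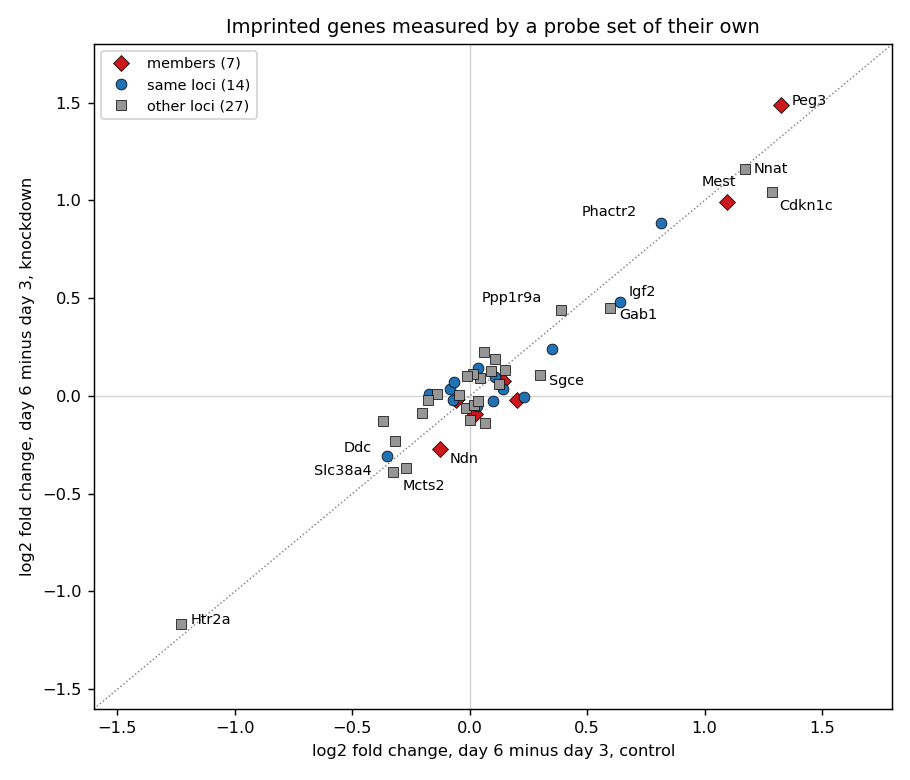
Log2 fold change from day 3 to day 6 in control (horizontal) and knockdown cells (vertical) for the 48 imprinted genes tested by a probe set of their own: the 7 measured here (diamonds), 14 from the same domains (circles) and 27 from other loci (squares). Genes called in either comparison are labelled and the dotted line marks equal values; Peg3, Mest, Nnat and Cdkn1c lie highest and Htr2a lowest in both.

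The genes whose values ran closest to each called gene over the 12 arrays were found by the mean absolute difference after each gene was centred on its own mean. For Peg3 these were Aldoc (0.111), Nrbp2 (0.128) and Nxpe2 (0.131), against a median of 0.701 over all genes kept. For Mest they were Palmd (0.0882), Cbr2 (0.0969) and Egr1 (0.100), against a median of 0.520. For Ndn they were Stx7 (0.0412), Rragc (0.0413) and Stambp (0.0426), against 0.140, all on the log2 scale. These genes were chosen for that likeness, so it is a description only.

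Some markers of the cultures were called over the same days. Over all genes, 6.99% were called higher and 10.6% lower in control, and 7.46% and 10.5% in knockdown. Of 14 fibroblast markers tested, Pdgfrb was called higher at day 6 with both hairpins (1.11 and 0.91) and Col5a2 lower (-0.61 and -0.53), both named after their values were seen, and the other 12 were not called. The Col5a2 calls were lost without replicate 2 of both days (adjusted p = 0.0505 in control and 0.0840 in knockdown), and the Pdgfrb call in knockdown without replicate 1 of both days (0.69; adjusted p = 0.0524). The mean fibroblast marker level was highest on replicate 1 of both day 6 groups, at 9.79 in control and 9.73 in knockdown, against 9.31 to 9.51 on the other 10 arrays. Peg3 and Mest were also highest on those 2 arrays. Of 15 mitosis genes 9 were called lower at day 6 in control and 7 in knockdown, and their mean level was lowest on the same 2 arrays, at 9.03 and 9.21. Of 12 neural markers 11 were tested, of which 1 was called higher and 4 lower in control and 0 and 3 in knockdown. Of 9 endothelial markers 8 were tested and 2 were called higher with either hairpin. Of 12 epithelial markers 2 were called higher and 2 lower in control, and 7 higher and 1 lower in knockdown. Their mean level lay at 5.69 to 5.87 at day 3. At day 6 it lay at 5.91 to 6.01 in control and at 6.36 to 6.49 in knockdown. Of 12 pluripotency markers 2 were called higher in control and 6 in knockdown. Their mean level was 5.22 to 5.33 at day 3. At day 6 it was 5.34 to 5.39 in control and 5.73 to 5.90 in knockdown. Between hairpins at day 6, 3 of the 12 pluripotency and 2 of the 12 epithelial markers were called higher in knockdown (limma). Over all genes 7 of 17860 were called in that comparison. Before adjustment 7 and 8 of the 12 were below 0.05. At day 3 the hairpin comparison called 0 in either list. The difference between the time effects of the hairpins was called for 0 of the 12 genes in each of these lists (limma), and was below 0.05 before adjustment for 6 of 12 in each. The remaining lists were as follows. Among 9 macrophage and leukocyte markers 1 was called higher and 1 lower in control, and 1 and 2 in knockdown. Among 5 adipocyte markers 1 was called higher and 2 lower in control, and 0 and 2 in knockdown. Of 8 chondrocyte markers 1 was higher and 1 lower in control, and 2 and 1 in knockdown. Of 14 skeletal muscle markers 0 were called in control and 2 were higher in knockdown, and of 6 hepatic and visceral endoderm markers 0 and 1. The part of any of these in the changes of Peg3, Mest and H19/Mir675 was not tested. Without replicate 1 of both days, the rise in control was 1.21 for Peg3 (adjusted p = 0.00237, limma) and 0.98 for Mest (adjusted p = 0.00964), and in knockdown it was 1.33 and 0.94.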

How the data were processed

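RNA from 12 samples, 3 in each of 4 groups, was labelled with biotin from 100 ng and hybridised to Affymetrix mouse arrays, 1 array a sample, per the labels' protocols. The deposited values are linear signal intensities that, per the submitters' processing notes, the authors made with RMA and Affymetrix Expression Console 1.3.0.187, and they ran from 4.71 to 13421. The array's genome build was not given in the sources used here. RMA summarises several probes and compresses differences of dim probe sets.

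The log2 of each intensity was taken. Of 41345 probe sets, 23521 named 1 gene, 1814 several and 16010 none; 23328 of the first had a gene ID in the reference table. A gene with several probe sets of its own (1082 of 22180) was represented by the one with the highest mean. Genes reaching the array's own 30th percentile on at least 3 arrays were kept, 17860 in all. Groups were compared by limma 3.58.1 under R 4.3.3, as 4 group means over 12 arrays with 8 residual degrees of freedom, two-sided, adjusted by Benjamini-Hochberg over all genes kept and called below 0.05. The scripts were tested on simulated data. The median half-width of a 95% interval was 0.18 on the log2 scale, and Pearson's r between arrays of a group was 0.994 to 0.996. Precision is limited by the number of arrays.

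The imprinted genes and the marker and gene lists were chosen with earlier results of these data known. From the lists, the genes named were at most 6 a list by largest log2 fold change among those called, or the 2 with the highest level where fewer than 2 were called, besides Igf2, Rian and Cdkn1c. Alternatives were other filters, renewed quantile or median normalization, averaged probe sets, all probe sets fitted together, other limma settings and leaving out arrays. Groups share replicate numbers in the labels. After group means were removed, same-numbered arrays of different groups correlated at 6.3e-04 to 0.373 over genes, above 0.1 in 17 of 18 pairs and in all pairs of compared groups, and differently numbered arrays at -0.279 to 0.0247, so the numbers were taken to pair the samples. The main fit did not use this pairing, so its intervals and adjusted p-values include the spread between replicate numbers. A fit with the replicate number as a block was run as an alternative. Plots were drawn with matplotlib 3.10.9.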

Additional observations from a re-analysis of the deposited data

How the results depend on the processing

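Peg3 and Mest were called higher at day 6 with both hairpins under all 19 alternatives run for each, with log2 fold changes of 1.19 to 1.64 for Peg3 and 0.83 to 1.28 for Mest. The H19/Mir675 probe set was called under all 17, at 2.52 to 2.74. The fall of Ndn in knockdown was called in 15 of 19, with the exceptions given beside its values. The count of the 7 genes called was 2 under every alternative in control and 2 to 3 in knockdown, and 0 in each comparison between hairpins. With the replicate number as a block, Peg3 kept 1.33 and 1.49 (adjusted p = 1.78e-05 and 7.53e-06, limma) and Mest 1.10 and 0.99 (1.41e-05 and 1.87e-05), and Ndn in knockdown had 0.0259. The pairing changed no call of the 7 genes; among the 22 other genes refitted it ended those of Ddc in knockdown and Tet3 in control.

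Over all genes, the count called at day 6 between hairpins was 7, 6 with the block and 0 to 8 over alternatives, with 2 when only the groups compared were fitted. Over both days it was 0, 2 with the block and up to 3. Over time it was 3140 in control (1435 to 3967) and 3200 in knockdown (1638 to 3529), lowest without replicate 2 of both days. Of 3912 alternative values of the genes and probe sets refitted, 201 changed sign, all of them of uncalled differences of at most 0.20 in size, and 0 were of a called value. The limits are 3 arrays a group, probe sets for H19 and the brighter ones for Meg3 that name several genes, and no array of cells without the factors.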

Other observations

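Some genes that keep, write or erase imprints were called over the same days. Of 17 listed, 16 were tested, and in control 3 were called higher and 2 lower at day 6, while in knockdown 5 were called higher and 0 lower (limma). In each comparison 11 did not pass, and over all genes 6.99% were called higher and 10.6% lower in control and 7.46% and 10.5% in knockdown. Tet1, a dioxygenase that oxidises methylated cytosine, read 5.98, 6.05 and 6.12 in day 3 controls and 6.50, 6.69 and 6.72 in day 6 controls. Its knockdown arrays read 5.82, 5.71 and 5.80 at day 3 and 7.01, 6.79 and 6.72 at day 6. The days did not overlap with either hairpin, at log2 fold changes of 0.59 (adjusted p = 6.58e-04) and 1.06 (adjusted p = 9.47e-06). The difference between these time effects, 0.47, did not pass (adjusted p = 0.918). Tet3, of the same family, rose by 0.45 in knockdown (adjusted p = 2.98e-04). Its control value of 0.19 was called at an adjusted p of 0.0494, and that call was lost in 12 of 18 alternatives, among them the replicate block (adjusted p = 0.0690).

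Dnmt1, the methyltransferase that copies methylation after replication, and its partner Uhrf1 were called lower at day 6 in control, by -0.38 and -0.39 (adjusted p = 0.0331 and 0.0300, limma). In knockdown the differences were -0.14 and -0.13 and did not pass, and the differences between hairpins in these time effects did not pass either (adjusted p = 0.990 for both). The control calls were lost in 9 and 8 of 18 alternatives, for both genes when day 3 control replicate 1 or 2 or day 6 control replicate 1 or 3 was left out. Their mean levels moved beside those of the mitosis genes described above, and the part of cell division in them was not tested. Dnmt3a, a methyltransferase that sets new methylation, had values of 0.22 in control (adjusted p = 0.0499) and 0.29 in knockdown (adjusted p = 0.0143), called in 8 and 13 of 18 alternatives. Dnmt3b, of the same kind, rose by 0.60 in knockdown (adjusted p = 9.84e-04), and its control value of 0.24 did not pass (adjusted p = 0.108). The control value was called with only the control arrays fitted (adjusted p = 0.0333) and with array weights (adjusted p = 0.0361). The difference between these effects did not pass either (adjusted p = 0.948).

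Between hairpins 0 of the 16 were called by limma. Below 0.05 before adjustment were 4 at day 3 and 2 at day 6, against 1074 and 793 of all 17860 genes.

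The replicate number was visible in 2 of the imprinted genes. Dlk1 and Mest were highest on replicate 1 and lowest on replicate 3 in all 4 groups, which held for 66 of the 17860 genes kept, or 0.37%. Peg3 was lowest on replicate 3 in all 4 groups. This was noticed after the values were seen, and what the replicate numbers stand for is not given in the labels.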
